A study of Mus musculus with 8 samples.

Results

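Basal-like and squamous epithelial markers were followed in RNA-Seq of mouse pancreas bearing transplanted pancreatic tumor organoids. The set was given by name and holds 10 genes, namely the keratins Krt5, Krt14, Krt15, Krt17 and Krt6a, the transcription factor Trp63, the cell cycle regulator Sfn, the desmosomal cadherins Dsc2 and Dsg3, and the surface protein Ly6d. Values of 7 of the 10 genes are described, out of 15047 genes in the table. Krt5, Krt15 and Trp63 are not among these 15047 genes and were not analysed here. The 8 samples were 3 mice on low-fat diet (LFD), 3 on high-fat diet (HFD) and 2 leptin-deficient ob/ob mice on standard chow. All mice were 4 weeks old when feeding began. LFD and HFD mice were male C57BL/6 WT and received their diet for 10 weeks, with 60% of the calories of the HFD from fat. The ob/ob mice were male C57BL/6J; ob/ob and lack functional leptin in all cells, so that genotype and chow both set them apart from LFD. The sample labels name only pancreas, whereas the study describes the transcriptomes as those of mice that had received mT organoids in the pancreas. These organoids came from tumor-bearing mice in which Pdx1-Cre, active in the pancreatic lineage, had recombined engineered tumor alleles, among them a mutant Trp53 allele, and all 3 groups share them. RNA came from bulk tissue, in which fewer cells of a type and less RNA per cell cannot be told apart.

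Stratified epithelia such as epidermis rest on a basal layer that carries the keratin pair Krt5 and Krt14 and depends on the p63 protein encoded by Trp63. Krt6a and Krt17 are keratins that epidermis turns on after wounding or stress, and desmosomal cadherins such as Dsg3 and Dsc2 hold neighbouring epithelial cells together. The normal exocrine pancreas is a simple epithelium with Krt8, Krt18 and Krt19, and the appearance of basal and squamous genes is used to define the basal-like or squamous class of pancreatic cancer. The values are rlog values, which the authors made from gene counts with DESeq2. Such values are log2 values adjusted for sequencing depth and shrink the differences of genes with few reads, so that they understate the change of such genes. The depth of each library is unknown, and the error given is the spread between mice. The rlog scale is not corrected for gene length, so the levels of different genes are not compared.

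Acinar genes, which make the digestive enzymes of the exocrine pancreas, were highly expressed throughout, and the mean rlog value of 28 of them was 17.34 to 17.85 in the LFD mice. It was lowest in HFD replicates 2 and 3, at 15.58 and 13.67, and in ob/ob replicate 2, at 13.98, whereas HFD replicate 1 and ob/ob replicate 1 were at 17.67 and 16.97. The mean of 11 fibroblast genes ranged from 8.87 to 9.32 in lean mice and from 9.70 to 10.83 in the 5 obese mice. Of the 11, 6 and 9 were higher in HFD and ob/ob than LFD at an unadjusted p-value under 0.05 with limma. Among all genes, 11.5% and 11.6% passed as higher. The 8 adipocyte genes averaged between 6.68 and 8.02 per mouse and the 9 mesothelial genes between 4.83 and 5.96. The groups overlapped in the adipocyte average. Of the 8 genes, 3 had a higher mean in HFD than LFD and 5 a lower one. Among these, 1 was higher and 2 were lower without overlap, against 12.9% and 12.3% of all genes. The 10 B lymphocyte genes averaged 5.92 in LFD replicate 2 and 3.44 to 4.24 in the other 7 mice.

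An HFD mouse had the highest value for 6 of the 7 markers. The mean rlog value over the 7 genes was 4.76, 5.64 and 5.04 in the LFD mice by replicate number, 5.42, 6.31 and 5.67 in the HFD mice, and 5.33 and 4.95 in the ob/ob mice. HFD replicate 2 was highest or second highest for 7 of 7 genes and HFD replicate 3 for 4 of 7, whereas LFD replicate 1 was the lowest mouse for 4 of 7. The group averages were 5.15 ± 0.45 for LFD (SD, n = 3), 5.80 ± 0.46 for HFD (SD, n = 3) and 5.14 ± 0.27 for ob/ob (SD, n = 2), and LFD replicate 2 lay above HFD replicate 1 and both ob/ob mice.

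**Figure D1:**
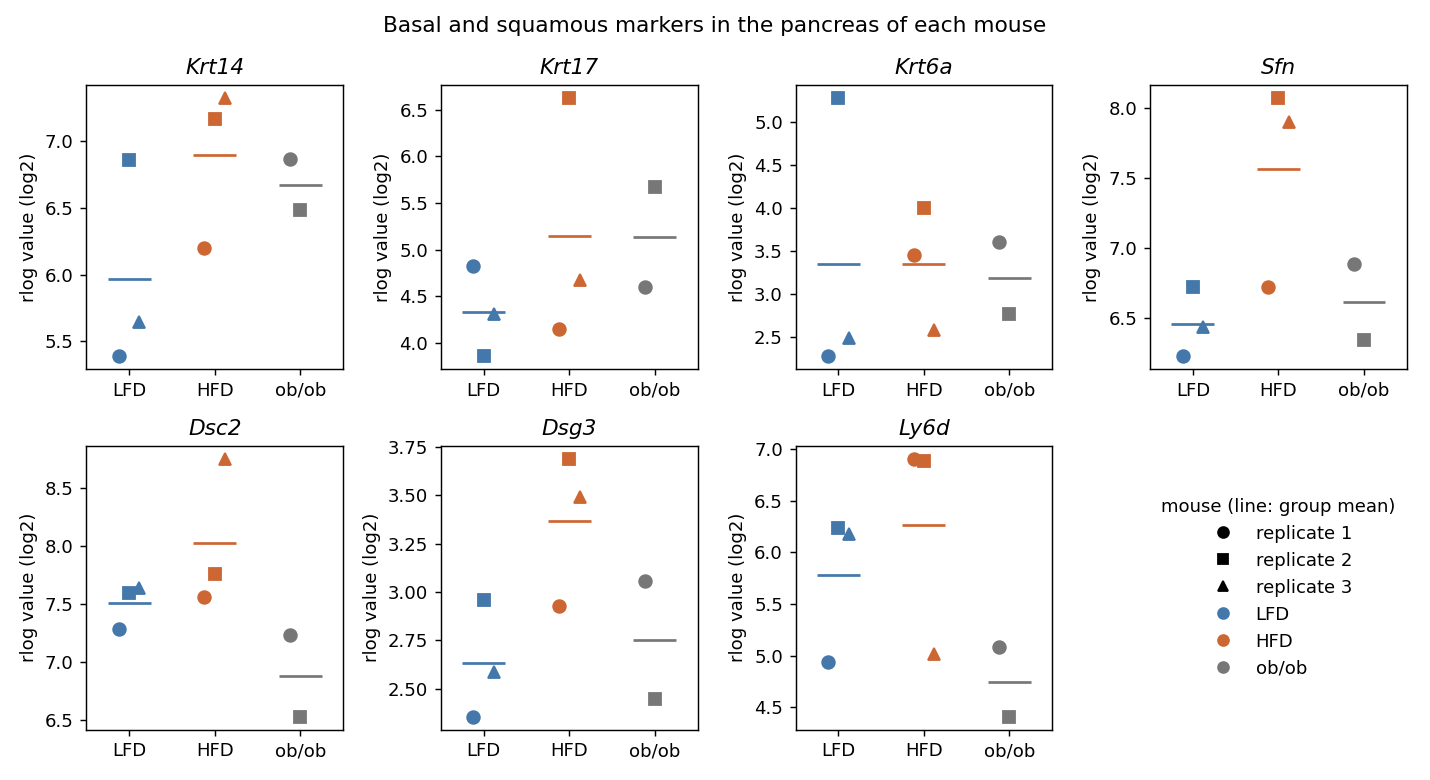
rlog values (log2 scale, a separate y axis for each gene) of the 7 markers in each of the 8 mice, with a horizontal line at the group mean. HFD replicates 2 and 3 stood above the other 6 mice for Sfn and Dsg3, both ob/ob mice lay below the others for Dsc2, and LFD replicate 2 stood above all others for Krt6a.

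Differences between groups were tested with limma on all 15047 genes, with p-values adjusted by the Benjamini-Hochberg method over all of them. None of the markers had an adjusted p-value under 0.05 in any comparison, and neither had any other gene (0.0% of genes each time), so the values that follow are described at unadjusted p-values. HFD mice had a higher mean than LFD mice for 6 of the 7 markers, against 52.4% of all genes. At an unadjusted p-value under 0.05, 2 of the 7 were higher, Sfn and Dsg3, and 0 were lower, where 19.8% of all genes passed, 11.5% as higher and 8.35% as lower. Sfn was the 1 marker whose HFD and LFD mice did not overlap, as was seen for 25.2% of all genes (12.9% higher, 12.3% lower).

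Between ob/ob and LFD, 4 of the 7 markers had a higher mean and 3 a lower one, with 53.1% of all genes higher. None of the 7 had an unadjusted p-value under 0.05, against 18.8% of all genes (11.6% higher, 7.18% lower). Dsc2 alone did not overlap, being lower in ob/ob, and 45.9% of all genes did not (24.1% higher, 21.8% lower). With both obese groups averaged, 4 markers were on average above and 3 below LFD, and 0 of the 7 had an unadjusted p-value under 0.05 or were free of overlap. Among all genes, 53.5% were above LFD, 25.4% passed that level (14.5% higher, 10.9% lower) and 18.4% did not overlap (9.4% higher, 9.05% lower).

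Between ob/ob and HFD, 7 of the 7 markers had a lower mean in ob/ob, while 51.7% of all genes had a higher one. Of these 3 were lower at an unadjusted p-value under 0.05, namely Dsc2, Ly6d and Sfn, against 3.91% of all genes (2.28% higher, 1.63% lower). Dsc2 was the marker without overlap, where 13.3% of all genes had none (7.92% higher, 5.42% lower). The median log2 difference of the 7 markers was 0.74 in the comparison of HFD with LFD, 0.12 in that of ob/ob with LFD and -0.62 in that of ob/ob with HFD, beside medians of 0.03, 0.04 and 0.01 over all genes. These comparisons share mice and are therefore not independent.

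**Figure D2:**
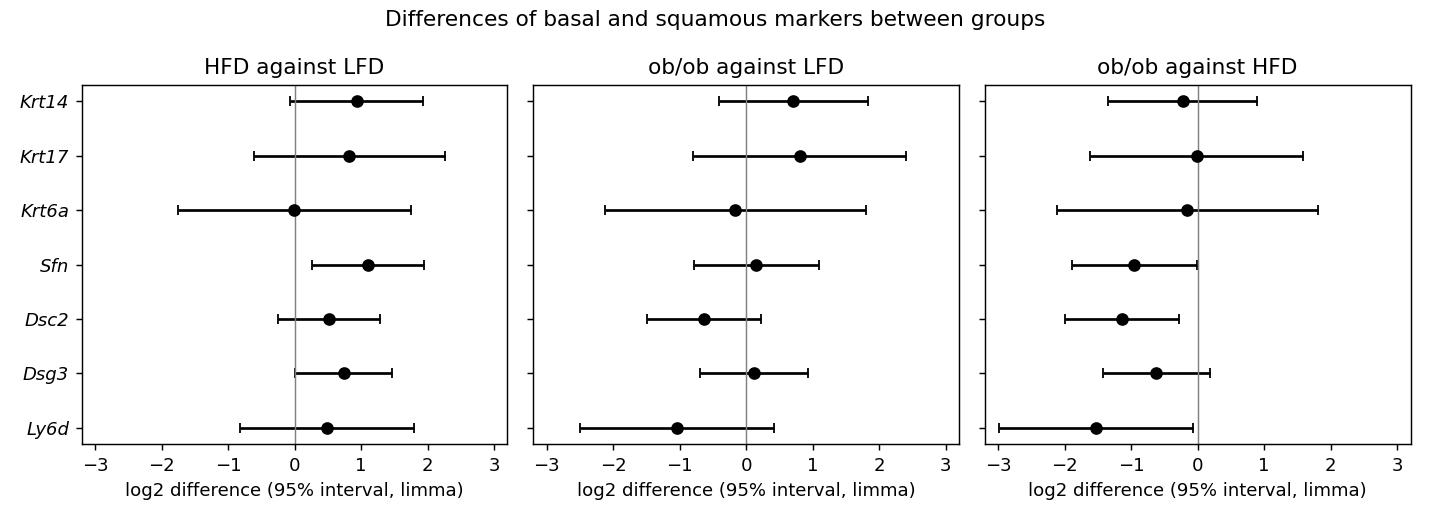
Log2 differences of the 7 markers (points) with 95% confidence intervals from limma (bars), in 3 panels (HFD and LFD, ob/ob and LFD, ob/ob and HFD, each as first minus second). Only the intervals of Sfn and Dsg3 in the first panel, and of Sfn, Dsc2 and Ly6d in the third, leave out 0, all before adjustment for the number of genes.

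Sfn encodes 14-3-3 sigma, an epithelial protein that restrains the cell cycle in G2 and is a known target of p53. It lies on chromosome 4 of GRCm38 (133600556 to 133602168, minus strand, Gencode M21) and consists of 1 exon. Its rlog value was 6.23, 6.72 and 6.43 in the LFD mice by replicate number, 6.72, 8.07 and 7.90 in the HFD mice, and 6.89 and 6.34 in the ob/ob mice. HFD replicates 2 and 3 stood well above the other 6 mice, whereas HFD replicate 1 exceeded LFD replicate 2 only in the third decimal. The log2 difference between HFD and LFD was 1.10 (standard error 0.37, 95% interval 0.27 to 1.94), with an unadjusted p-value of 0.0157 and an adjusted p-value of 0.199 with limma. Without HFD replicate 1 it was 1.52, with an adjusted p-value of 0.0158 with limma, and 2812 of all genes then had an adjusted p-value under 0.05. In ob/ob, Sfn differed from LFD by 0.15 (95% interval -0.78 to 1.09) and from HFD by -0.95 (95% interval -1.89 to -0.01, unadjusted p = 0.0475, adjusted p = 1.00 with limma). Of the 1583 sequence words of 31 bases in its transcript, 425 (26.8%) also occur in transcripts of other genes, the largest numbers in Gm7850 and Gm5279. The paired-end reads of the study were longer than 31 bases, so this is not the share of reads that Sfn cannot claim alone.

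Dsg3, the desmoglein of basal keratinocytes, ordered the mice much as Sfn did. It lies on chromosome 18 (20510274 to 20547459, plus strand) and has up to 19 exons in a transcript. Its rlog value was 2.35, 2.96 and 2.58 in the LFD mice by replicate number, 2.93, 3.69 and 3.49 in the HFD mice, and 3.05 and 2.45 in the ob/ob mice. HFD replicates 2 and 3 were the highest of the 8 mice, and HFD replicate 1 lay just below LFD replicate 2, so that the groups overlapped. The log2 difference between HFD and LFD was 0.74 (standard error 0.32, 95% interval 0.01 to 1.46, unadjusted p = 0.0466, adjusted p = 0.248 with limma). Over the 8 mice, Pearson r between Dsg3 and Sfn was 0.970 and Spearman rho 0.976, a description without a test, since both genes were read from the same libraries. Dsg3 was close to the lower end of the table, as 5.68% of genes had a lower mean, and rlog shrinks differences most in that range.

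Dsc2, the desmocollin of both simple and stratified epithelia, had its lowest values in ob/ob. It lies on chromosome 18 (20030633 to 20059554, minus strand) and has up to 18 exons in a transcript. The rlog value was 7.29, 7.59 and 7.64 in the LFD mice by replicate number, 7.56, 7.76 and 8.75 in the HFD mice, and 7.23 and 6.53 in the ob/ob mice. Both ob/ob mice were below the other 6, replicate 1 by a narrow margin. HFD replicate 3 stood 0.99 above the next mouse, and without it the difference between HFD and LFD was 0.15 in place of 0.52. The log2 difference of ob/ob was -0.63 from LFD (95% interval -1.48 to 0.23, unadjusted p = 0.132) and -1.14 from HFD (standard error 0.38, 95% interval -1.999 to -0.28, unadjusted p = 0.0149), with adjusted p-values of 0.365 and 1.00 with limma. Without ob/ob replicate 2, the difference from HFD was -0.79, with an unadjusted p-value of 0.121, and that from LFD was -0.28.

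Ly6d, a GPI-anchored protein of keratinocytes that also marks early B lymphocytes, had its highest values in HFD replicates 1 and 2. It lies on chromosome 15 (74762056 to 74763620, minus strand) and has 3 exons. Its rlog value was 4.94, 6.23 and 6.17 in the LFD mice by replicate number, 6.91, 6.88 and 5.01 in the HFD mice, and 5.08 and 4.41 in the ob/ob mice. HFD replicate 3 therefore lay between the ob/ob mice, and those groups overlapped. The log2 difference between ob/ob and HFD was -1.52 (standard error 0.64, 95% interval -2.98 to -0.06, unadjusted p = 0.0425, adjusted p = 1.00 with limma), and 99.3% of all genes differed by less in size. Without HFD replicate 1, HFD replicate 2 or ob/ob replicate 2 it was -1.20, -1.21 and -1.19, with unadjusted p-values of 0.107, 0.125 and 0.190. Between HFD and LFD the difference was 0.48 (95% interval -0.82 to 1.79), 0.06 without LFD replicate 1 and 1.11 without HFD replicate 3. With the mean of the acinar genes in the fit it was 1.26 (unadjusted p = 0.0258, adjusted p = 0.397 with limma). LFD replicate 2, which stood apart in the B lymphocyte genes, had nearly the same Ly6d as LFD replicate 3. None of the 714 words of 31 bases in its transcript occurs in another gene.

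Krt14, the keratin of the basal layer, lies in the type I keratin cluster on chromosome 11 (100203162 to 100207548, minus strand) together with Krt17 (100256217 to 100261029) and Krt16 (100246091 to 100248902), each with 8 exons. Its rlog value was 5.39, 6.85 and 5.64 in the LFD mice by replicate number, 6.20, 7.16 and 7.32 in the HFD mice, and 6.86 and 6.48 in the ob/ob mice. LFD replicate 2 lay among the obese mice, and the 5 obese mice lay above the other two LFD mice. The log2 difference from LFD was 0.93 in HFD (standard error 0.44, 95% interval -0.07 to 1.93, unadjusted p = 0.0646) and 0.71 in ob/ob (95% interval -0.41 to 1.83, unadjusted p = 0.185), with adjusted p-values of 0.276 and 0.425 with limma. Without LFD replicate 2, the difference of HFD was 1.38 (unadjusted p = 0.00817, adjusted p = 0.324 with limma) and that of ob/ob was 1.15, whereas without LFD replicate 1 that of ob/ob was 0.42. Krt14 followed Dsg3 and Sfn over the 8 mice, with Pearson r of 0.841 and 0.801.

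Krt17, a stress keratin found in basal-like pancreatic tumors, stood out in 2 obese mice of different groups. Its rlog value was 4.82, 3.86 and 4.30 in the LFD mice by replicate number, 4.15, 6.63 and 4.67 in the HFD mice, and 4.60 and 5.67 in the ob/ob mice. HFD replicate 2 was 0.96 above ob/ob replicate 2, the next highest, whereas the other 3 obese mice lay within the range of the LFD mice. The log2 difference from LFD was 0.82 in HFD (standard error 0.63, 95% interval -0.61 to 2.25) and 0.81 in ob/ob (95% interval -0.80 to 2.41), with adjusted p-values of 0.470 and 0.521 with limma. Without HFD replicate 2 the difference between HFD and LFD was 0.08, and that between ob/ob and LFD was 0.27 without ob/ob replicate 2 and 1.34 without ob/ob replicate 1. Pearson r of Krt17 with the other 6 markers over the 8 mice lay between -0.18 and 0.46.

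The transcripts of these keratins are alike over long stretches. Salmon shares reads that match several genes between those genes by probability. Of 1721 words of 31 bases in the Krt14 transcripts 28.2% occur in another gene, 303 of them in Krt16 and 180 in Krt17, and of 1521 words in Krt17 15.8% do. The longest runs of identical coding sequence are printed here 5′ to 3′ on the sense strand. Each printed run is shorter than a read of the study, so a full read over it also covers bases outside it. The run common to Krt17 and Krt14 spans coding bases 1105 to 1175 of Krt17 and 1216 to 1286 of Krt14, counted from the A of the start codon in Gencode M21, and its capitals mark the 55 bases that Krt16 carries too.
Krt17 and Krt14, 71 bases: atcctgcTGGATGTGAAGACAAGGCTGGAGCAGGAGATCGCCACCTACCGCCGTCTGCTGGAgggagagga
Krt14 and Krt16, 134 bases: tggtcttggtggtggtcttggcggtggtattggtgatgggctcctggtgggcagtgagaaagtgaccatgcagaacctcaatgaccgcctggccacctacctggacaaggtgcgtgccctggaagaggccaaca
The second run spans coding bases 306 to 439 of Krt14 and 282 to 415 of Krt16.

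Krt6a, the type II stress keratin, was highest in a lean mouse. It lies on chromosome 15 (101689910 to 101694307, minus strand) and has up to 9 exons in a transcript. Its rlog value was 2.27, 5.28 and 2.49 in the LFD mice by replicate number, 3.45, 4.00 and 2.57 in the HFD mice, and 3.60 and 2.76 in the ob/ob mice. LFD replicate 2 was 1.28 above the next mouse, and LFD replicates 1 and 3 were the lowest of all. The log2 difference from LFD was -0.01 in HFD (95% interval -1.76 to 1.75) and -0.16 in ob/ob (95% interval -2.12 to 1.80), with adjusted p-values of 0.997 and 0.930 with limma. Without LFD replicate 2 that of HFD was 0.96 (unadjusted p = 0.0782) and that of ob/ob was 0.80. The same mouse stood apart in the B lymphocyte genes, for example with 7.13 for the B lineage factor Pax5 against 1.57 to 2.80 in the other 7 mice, and the part of these cells in the Krt6a value was not tested. Of the 2415 words of 31 bases in the Krt6a transcripts, 51.3% recur in other genes, the highest share among the 7 markers, and 1109 of them occur in Krt6b.

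**Figure D3:**
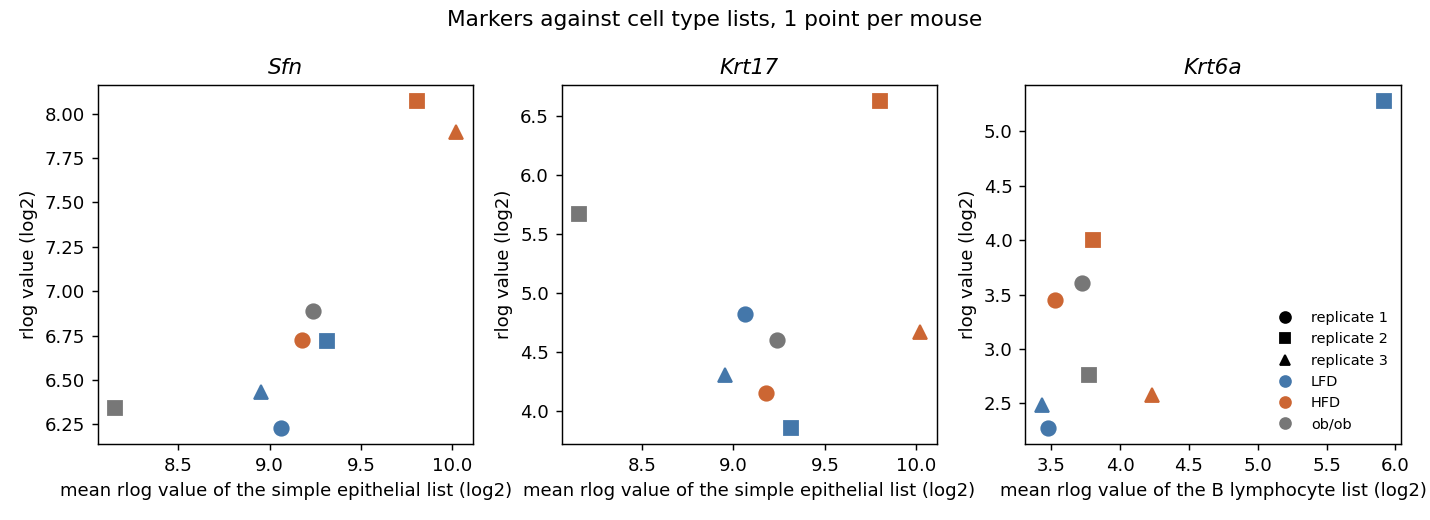
rlog values (log2) of Sfn and Krt17 against the mean of 13 simple epithelial genes, and of Krt6a against the mean of 10 B lymphocyte genes, with 1 point for each of the 8 mice (color for group, shape for replicate). HFD replicates 2 and 3 were highest on both axes for Sfn, the 2 highest Krt17 values came from mice at 9.80 and 8.15 on the simple epithelial axis, and LFD replicate 2 stood alone at the top right for Krt6a.

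Genes of simple epithelium were read beside the markers in the same mice. The mean of 13 such genes, among them Krt8, Krt18, Cdh1 and Epcam, was 9.06, 9.32 and 8.95 in the LFD mice by replicate number, 9.18, 9.80 and 10.02 in the HFD mice, and 9.24 and 8.15 in the ob/ob mice. HFD replicates 2 and 3 were the highest mice, as for Sfn, and ob/ob replicate 2 was the lowest, where it was second lowest for Sfn. Of the 13 genes, 10 had a higher mean in HFD than LFD. Of these, 4 passed at an unadjusted p-value under 0.05 (Krt7, Krt8, Krt19 and Epcam), where 11.5% of all genes passed as higher. The other 3, Esrp1, Esrp2 and Grhl2, were lower in HFD without overlap, as were 12.3% of all genes. Their log2 differences were -0.77, -0.78 and -0.77. In ob/ob, 13 of 13 had a lower mean than in HFD, 8 of them at that level, against 1.63% of all genes. The ductal keratins Krt7, without overlap, and Krt19, with overlap, differed by 1.79 and 1.34 between HFD and LFD. Krt20 differed by 1.85 with overlap, and by 0.71 without HFD replicate 3. Esrp1 and Esrp2, splicing factors of epithelial cells, differed by -1.19 and -1.43 between ob/ob and LFD, but by -0.24 and -0.68 without ob/ob replicate 2.

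Taken relative to the mean of the 13 genes in the same mouse, Sfn averaged -2.65 ± 0.16 for LFD, -2.10 ± 0.36 for HFD and -2.08 ± 0.38 for ob/ob (SD), a difference that was not tested. For Dsc2 the same quantity was -1.61 ± 0.25, -1.65 ± 0.39 and -1.82 ± 0.27, and for Krt14 it was -3.15 ± 0.62, -2.77 ± 0.18 and -2.02 ± 0.50. A list of 12 ductal genes averaged 8.39 ± 0.13 for LFD, 9.03 ± 0.29 for HFD and 8.25 ± 0.40 for ob/ob. Of its genes, 6 were higher in HFD than LFD at an unadjusted p-value under 0.05, against 11.5% of all genes. The part of the amount of epithelium in the marker values was not tested.

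Of 13 other keratins of stratified epithelia, 4 were analysed, and Krt16 was the one with higher values in each obese mouse. Krt16, a partner of Krt6 proteins in stressed epidermis, was at 1.83, 1.86 and 1.98 in the LFD mice by replicate number, 2.23, 2.90 and 2.999 in the HFD mice, and 3.38 and 3.14 in the ob/ob mice. The 5 obese mice were above the 3 lean ones without overlap, as was seen for 9.4% of all genes. Its log2 difference from LFD was 0.82 in HFD (unadjusted p = 0.016 with limma) and 1.37 in ob/ob (unadjusted p = 0.00179 with limma). Its values are near the lower end of the rlog scale, and the transcripts of Krt14 share 303 words of 31 bases with it. Krt80, Krt4 and Krt10 differed between the obese groups and LFD by 0.33, 0.31 and -0.25, and their obese and lean mice overlapped. In ob/ob alone, Krt4 was higher than in LFD without overlap, by 0.63, where 24.1% of all genes were higher without overlap.

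Of 14 other desmosome genes, 9 were analysed. In HFD, 1 was higher than in LFD at an unadjusted p-value under 0.05, against 11.5% of all genes. In ob/ob, 4 were lower than in LFD at that level, against 7.18% of all genes. Pkp1, the plakophilin of stratified epithelia, was at 5.10, 4.97 and 4.57 in the LFD mice by replicate number, 5.37, 7.65 and 6.80 in the HFD mice, and 5.32 and 7.87 in the ob/ob mice. Its log2 difference from LFD was 1.73 in HFD (unadjusted p = 0.0401) and 1.72 in ob/ob (unadjusted p = 0.0616), the latter 0.44 without ob/ob replicate 2 and 2.99 without ob/ob replicate 1. The mice with the highest Pkp1, ob/ob replicate 2 and HFD replicate 2, were those with the highest Krt17. The 4 lower genes were Dsg2, Dsp, Pkp3 and Perp, with -1.16 for Dsg2, the desmoglein of simple epithelia, and -1.17 for Perp. Without ob/ob replicate 2, the lowest mouse for both, these were -0.25 and -0.21. The cornified envelope and desmosome protein Evpl differed by 0.81 between HFD and LFD, with overlap, and by 1.34 without HFD replicate 1.

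Hemidesmosome and epithelial laminin genes anchor basal cells to the basement membrane. Of these, 8 of 8 analysed had a higher mean in HFD than LFD, against 52.4% of all genes. At an unadjusted p-value under 0.05, 2 were higher, against 11.5% of all genes. The laminin chain Lama3 was among the 2, with a log2 difference of 1.97. Lama3 was at 8.34, 8.50 and 7.79 in the LFD mice by replicate number, 8.50, 10.50 and 11.55 in the HFD mice, and 8.99 and 8.69 in the ob/ob mice. HFD replicates 2 and 3 stood apart from the other 6 mice, and without HFD replicate 3 the difference of Lama3 was 1.29. Dst, a plakin of hemidesmosomes, differed by 0.98 between ob/ob and LFD (unadjusted p = 0.0444), and by 0.40 without ob/ob replicate 2.

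Among 18 genes of squamous differentiation, 8 were analysed. Of these, 3 were higher and 1 was lower in HFD than LFD at an unadjusted p-value under 0.05. Among all genes, 11.5% passed as higher and 8.35% as lower. Ivl, or involucrin, a precursor of the cornified envelope, was at 2.83, 3.10 and 2.84 in the LFD mice by replicate number, 3.44, 5.48 and 6.79 in the HFD mice, and 3.62 and 2.88 in the ob/ob mice. Its log2 difference was 2.31 between HFD and LFD (unadjusted p = 0.0113) and -1.99 between ob/ob and HFD (unadjusted p = 0.0366), and without HFD replicate 3 these were 1.53 and -1.21. S100a14 and the serpin Serpinb5, known as maspin, differed by 2.08 and 1.61 between HFD and LFD (unadjusted p = 0.0018 and 0.00377) and by -1.63 and -1.15 between ob/ob and HFD. The gap junction gene Gjb2 differed from LFD by -1.80 in HFD and -1.99 in ob/ob, the latter -0.63 without ob/ob replicate 2 and -3.34 without ob/ob replicate 1. Its lowest values, 5.71 and 5.36, were those of HFD replicate 3 and ob/ob replicate 2, the mice with the lowest acinar means, and the part of acinar cells in this difference was not tested. S100a16 differed by -0.01 between the obese groups and LFD.

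The mouse counterparts of the other Moffitt basal-like genes, from a list made on human pancreatic tumors, had a higher mean in HFD than LFD for 8 of 9 analysed, Cst6 being the other, and in ob/ob than LFD also for 8 of 9, Lemd1 being the other, out of 14 listed. The EGF receptor ligand Areg was at 3.42, 3.65 and 3.70 in the LFD mice by replicate number, 4.43, 6.69 and 7.03 in the HFD mice, and 4.74 and 4.96 in the ob/ob mice. The obese mice lay above the lean ones without overlap, as was seen for 9.4% of all genes. The log2 difference of Areg from LFD was 2.46 in HFD (unadjusted p = 0.00309 with limma) and 1.26 in ob/ob (unadjusted p = 0.0974 with limma). Tns4, a focal adhesion protein, and Anxa8, an annexin, differed by 2.40 and 1.80 between HFD and LFD. The mean of the 9 analysed genes of the list was 4.83, 4.57 and 4.40 in the LFD mice by replicate number. It was 4.76, 6.23 and 6.28 in the HFD mice and 4.97 and 5.78 in the ob/ob mice. HFD replicate 1 lay within the LFD range. The median log2 difference of the list was 1.20 in HFD and 0.97 in ob/ob, beside 0.03 and 0.04 over all genes. In HFD and ob/ob, 4 and 1 of its genes were higher at an unadjusted p-value under 0.05, the 1 being Dhrs9. Among all genes, 52.4% and 53.1% had a higher mean, and 11.5% and 11.6% passed as higher. Cst6 differed by -0.11 between the obese groups and LFD.

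**Figure D4:**
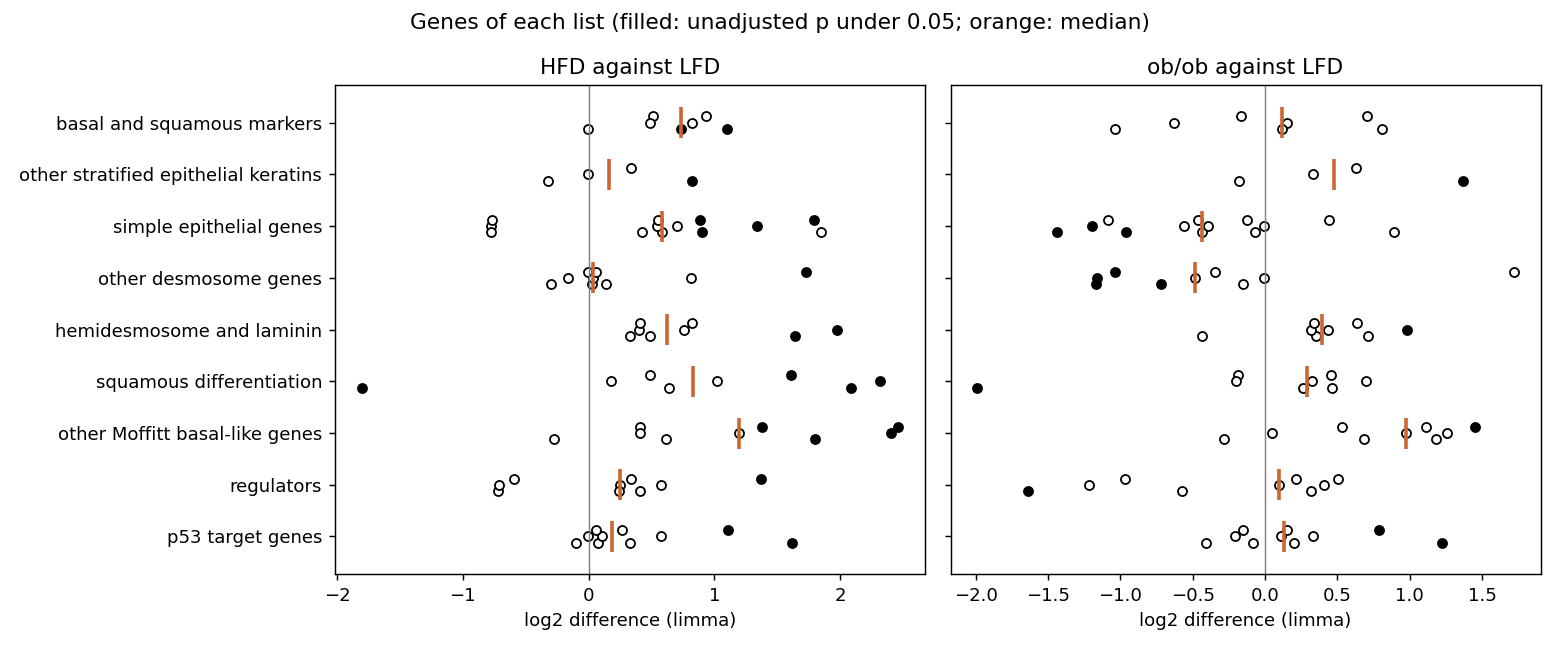
Log2 differences of each analysed gene from LFD, in HFD (left) and ob/ob (right), grouped by list. Filled points have an unadjusted p-value under 0.05 and orange lines are medians, which are 1.20 and 0.97 for the other Moffitt basal-like genes and 0.58 and -0.44 for the simple epithelial genes.

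Regulators of basal and squamous epithelium had no common direction. Of 9 analysed out of 17, 1 was higher in HFD than LFD at an unadjusted p-value under 0.05, against 11.5% of all genes. This was Klf5, a factor of proliferating epithelium. Klf5 was at 5.17, 5.95 and 5.77 in the LFD mice by replicate number and 6.30, 7.08 and 7.62 in the HFD mice, a log2 difference of 1.37 (unadjusted p = 0.00541), and at 6.03 and 5.65 in the ob/ob mice. Gata3 and Trim29 differed by 0.46 and 0.45 between the obese groups and LFD, and Trim29 was highest in HFD replicate 2 and ob/ob replicate 2, with 4.06 and 3.83. Ovol1, which promotes epithelial differentiation, differed by -1.18 between the obese groups and LFD, with an unadjusted p-value of 0.0114.

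Of 10 p53 target genes, read beside Sfn, 2 were higher in HFD than LFD at an unadjusted p-value under 0.05. Among all genes, 11.5% passed as higher. The 2 were the cell cycle inhibitor Cdkn1a, by 1.61 (unadjusted p = 0.000231 with limma), and Phlda3, by 1.11. Cdkn1a was at 5.34, 5.33 and 5.32 in the LFD mice by replicate number, 6.53, 7.38 and 6.91 in the HFD mice, and 6.27 and 5.96 in the ob/ob mice. Its mice did not overlap between any pair of groups. Among all genes, 25.2% did not for HFD and LFD, 45.9% for ob/ob and LFD, and 13.3% for ob/ob and HFD. Cdkn1a and Phlda3 also passed that level as higher in ob/ob than LFD, against 11.6% of all genes. Eda2r, Ccng1 and Trp53inp1 differed by 0.46, -0.25 and -0.05 between the obese groups and LFD. The median of the list was 0.19 in HFD and 0.13 in ob/ob, beside 0.03 and 0.04 over all genes.

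The genes with the pattern most like each marker were searched among 8641 genes whose rlog values span at least 1, by Pearson r over the 8 mice, and nothing on shared function follows from such a match. Nearest to Sfn were Gm13387 and Tnfaip8l3 (r = 0.993 and 0.990), to Dsg3 Gcnt3 and Cnksr2 (r = 0.979 and 0.975), and to Krt14 Rab15 and Acap1 (r = 0.976 and 0.953). Nearest to Dsc2 were Ppa1 and Carmil1 (r = 0.971 and 0.968), to Krt17 Fibin and Thnsl1 (r = 0.955 and 0.949), to Ly6d Sftpd and Smox (r = 0.955 and 0.953), and to Krt6a Susd5 and Fer1l4 (r = 0.954 and 0.911). Gcnt3, an enzyme of mucin glycans, was at 5.60, 6.79 and 6.11 in the LFD mice by replicate number, 6.78, 8.39 and 8.44 in the HFD mice, and 6.72 and 5.92 in the ob/ob mice.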

How the data were processed

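Pancreas RNA-Seq of 3 LFD, 3 HFD and 2 ob/ob mice was grouped by the sample labels, which number the mice within each group. Per the submitters' processing notes and the methods of the study, the authors ran Salmon 0.11.3 on Gencode M18 transcripts (GRCm38) and deposited rlog values, a log2 unit, from DESeq2 1.22.2 for 15047 genes. Their filter on genes is not given in the sources used here. No counts were used here, so limma replaced a count test and depth is unknown.

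limma 3.58.1 (R 4.3.3) was fitted to all genes and all 8 mice with a mean per group and a variance trend, and p-values were adjusted by the Benjamini-Hochberg method. In data simulated for HFD and LFD over 15047 genes, 0% of 50 genes shifted by 2 residual SDs were called. Of 50 genes shifted by 4 residual SDs, 26% were called, and of 50 shifted by 8, 94% were.

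The markers and gene lists were chosen with earlier results of these data known. Named are all markers, per list up to 3 genes with the largest positive and 2 with the largest negative difference between obese and LFD mice, and the 2 genes nearest in pattern to each marker. Genes named to spell out a count, and Pax5, were added after their values were seen. Some genes that this rule names are not reported here. Positions, coding runs and words of 31 bases were taken from Gencode M21 (GRCm38), which is not the release the authors used. Alternatives were a fit without the trend, a fit of the compared groups alone, a minimum mean of 5, centring on medians, quantile normalization, a replicate block, the acinar mean as a covariate, and leaving out each mouse.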

Additional observations from a re-analysis of the deposited data

How the results depend on the processing

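Depth is unknown, and the spread between 2 or 3 mice limits every value. Of the marker differences, 170 kept their direction and side of the adjusted threshold in fits with other settings and 7 reversed, and on leaving out a mouse 147 did, 19 reversed and 2 became stronger. The cause was not tested except where fewer mice enter a fit.

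The number of genes with an adjusted p-value under 0.05 (limma) was 0 in each comparison. With the compared groups alone it was 1 for HFD and 38 for ob/ob against LFD, and with the acinar mean as a covariate it was 1 for ob/ob against LFD, 1 for obese against LFD and 1 between ob/ob and HFD. On leaving out a mouse it ranged from 0 to 2812 for HFD against LFD and from 0 to 3326 for obese against LFD, both highest without HFD replicate 1, from 0 to 61 for ob/ob against LFD, highest without ob/ob replicate 1, and from 0 to 1 for ob/ob against HFD. The number with an unadjusted p-value under 0.05 was 2985, 2831, 3825 and 588 in the order HFD, ob/ob and obese against LFD, then ob/ob with HFD. It was 1623, 1512, 1688 and 1191 with the acinar covariate, 353 for ob/ob against HFD with these groups alone and 389 with a minimum mean of 5. On leaving out a mouse it ranged from 1480 to 5445, from 752 to 3859, from 2037 to 5824 and from 369 to 1117. Centring on medians left 1823 of 3932 such genes higher in obese mice against 2186 of 3825 without it.

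With the replicate number as a block, the unadjusted counts were 3255, 3243, 4157 and 467, with 0 genes past the adjusted threshold in each comparison. In deviations from the group means, same-numbered mice correlated between -0.28 and 0.59, and 3 of 8 were closest to their own number. The deviations of the 2 ob/ob mice are mirror images, so these values cannot tell whether the numbers pair the mice. The block reversed Dsc2 in obese against LFD to 0.052.

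With the acinar covariate, Krt6a reversed to 0.44 for HFD, 0.32 for ob/ob and 0.38 for obese against LFD, Sfn to -0.10 for ob/ob against LFD, and Ly6d to 0.53 for obese against LFD. Quantile normalization gave -0.0050 for Sfn in ob/ob against LFD. On leaving out a mouse, Krt6a ranged from -0.54 to 0.96 for HFD, -0.70 to 0.80 for ob/ob and -0.62 to 0.88 for obese against LFD, and ranged from -0.58 to 0.26 between ob/ob and HFD. Sfn ranged from -0.12 to 0.43 and Dsg3 from -0.19 to 0.42 for ob/ob against LFD, Dsc2 from -0.24 to 0.12 and Ly6d from -0.70 to 0.037 for obese against LFD, and Krt17 from -0.55 to 0.73 for ob/ob against HFD. Without HFD replicate 1, Sfn passed the adjusted threshold with limma at 1.52 for HFD and 0.84 for obese against LFD (adjusted p = 0.0158 and 0.0304). The mean over the 4 markers with a mean of at least 5 was 6.43 for LFD, 7.19 for HFD and 6.23 for ob/ob.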
